A study of Mus musculus with 12 samples.

Results

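The 7 genes described here encode receptors through which the hepatocyte receives endocrine and growth factor signals: Prlr (prolactin receptor), Lepr (leptin receptor), Egfr (epidermal growth factor receptor), Gcgr (glucagon receptor), Nr3c1 (glucocorticoid receptor), Esr1 (oestrogen receptor alpha) and Thrb (thyroid hormone receptor beta). They were chosen by gene symbol, with earlier results of these data known. Each matched 1 row among the 18560 genes of the liver expression table. Shares of all genes given beside counts of chosen genes are therefore a description and not a test. The study compared livers of mice that lack OXR1A, a protein isoform made from Oxr1, with livers of wild-type mice, and its title points to liver fat, lipid metabolism and the response to hormones in males. All animals were 12 months old, and 12 libraries fall into 4 groups of 3: wild-type (WT) males, OXR1A-/- males, WT females and OXR1A-/- females, the mutants being called knockout here. No other allele, treatment or diet is named in the labels, nor is the strain, and the labels do not say how the isoform was removed. It is not stated either that each sample of a group came from its own animal. The p-values weigh differences against the spread among samples within groups, pooled over the 4 groups. Part of that spread may be technical, and a gene has the same SE in each contrast of 2 groups.

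Prlr and Lepr belong to the cytokine receptor family, which has no kinase of its own and signals through JAK kinases and STAT transcription factors. Egfr is a receptor tyrosine kinase, and Gcgr is a G protein-coupled receptor that raises cyclic AMP and so drives glucose output and amino acid breakdown. Nr3c1, Esr1 and Thrb are nuclear receptors, transcription factors switched on by cortisol or corticosterone, by oestradiol and by thyroid hormone. In rodent liver the pattern of pituitary growth hormone secretion differs between the sexes and sets much of the difference in gene expression between male and female hepatocytes. Prlr is a known female-biased and Egfr a known male-biased gene of that system.

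Expression is given as FPKM, fragments scaled to transcript length and library size, so levels can be set side by side between genes. The tests covered the 11514 genes that reached 1 FPKM in 3 or more libraries and used limma on log2(FPKM + 1) in 1 fit over the 12 libraries, and a gene was called at a Benjamini-Hochberg adjusted p under 0.05 over all tested genes. All 7 receptors passed this filter. Lepr passed with 5 libraries at or over 1 FPKM, 3 of them WT females. Log2 differences are on the log2(FPKM + 1) scale, which understates those of low genes, with their standard error (SE), and folds are ratios of mean FPKM. Oxr1 stood between 12.07 and 25.0 FPKM in the 12 libraries, but its row covers all isoforms and does not check the loss of OXR1A. The 15 hepatocyte markers were abundant everywhere, but their summed level was lower in the knockout males (79600 to 88500 FPKM) than in every library of the other groups (89100 to 109000). Alb (albumin) makes up a large part of that sum and averaged 33300 FPKM in knockout and 42200 in wild-type males. Between these groups the 15 went both ways: 6 had a positive log2 difference, and the median was -0.05, beside 0.19 for all tested genes. The 1 called, Hpx, was higher in knockout males, beside 2.55% of all tested genes called. Xist stood at 0.82 FPKM in knockout male 3, and the Y-linked Eif2s3y stood at 1.89 in WT female 1 and 0.85 in knockout female 1, traces of the other sex. In WT male 2, knockout female 2 and knockout male 3 long transcripts were low against the other libraries. Steps in low FPKM values gave only a rough depth of 20.7 to 30.8 (in units of 1e6 fragments) per library.

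All calls among the 7 receptors were in the contrasts between the sexes. Between wild-type males and females 3 of the 7 were called, Prlr and Lepr being higher in females and Egfr in males, where 13.4% of all tested genes were called (1273 lower and 266 higher in males). Of these, Lepr passed the filter on low values only through the wild-type females, so its call is not to be read against that share. Between knockout males and females 1 of 7 was called (Prlr), against 3.67% of all genes. Between knockout and wild type none of the 7 was called in males, where 2.55% of all genes were, and limma gave 2 of them (Prlr and Egfr) an unadjusted p under 0.05, as it did 23.9% of all genes. None was called in females either, against 0.0174% of all genes (2 genes), with Lepr alone at an unadjusted p under 0.05, beside 6.13% of all genes. The genotype-by-sex interaction, the difference between the male and the female genotype effect, called none of the 7 and 0.0261% of all genes, with Prlr and Lepr at an unadjusted p under 0.05, beside 9.03% of all genes. For the same reason as its call, the unadjusted p of Lepr in females and in the interaction is not to be read against these shares. No other tool was run.

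The 3 values of the groups compared did not overlap for 4 of the 7 receptors between wild-type males and females (Prlr, Lepr, Esr1 and Egfr), against 40.2% of all tested genes. The corresponding counts were 2 of 7 (Prlr and Gcgr) against 22.1% between knockout males and females. Between genotypes they were 1 of 7 (Prlr) against 23.7% in males and 2 of 7 (Lepr and Nr3c1) against 17.6% in females. Lepr was tested only through the wild-type females, so its place in counts with that group is not to be read against these shares. The comparisons share groups: the wild-type males, for example, enter both the male genotype contrast and the wild-type sex contrast. The median log2 difference of all tested genes was 0.19 between knockout and wild-type males and -0.21 between wild-type males and females, and near 0 in the other contrasts of 2 groups.

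**Figure D1:**
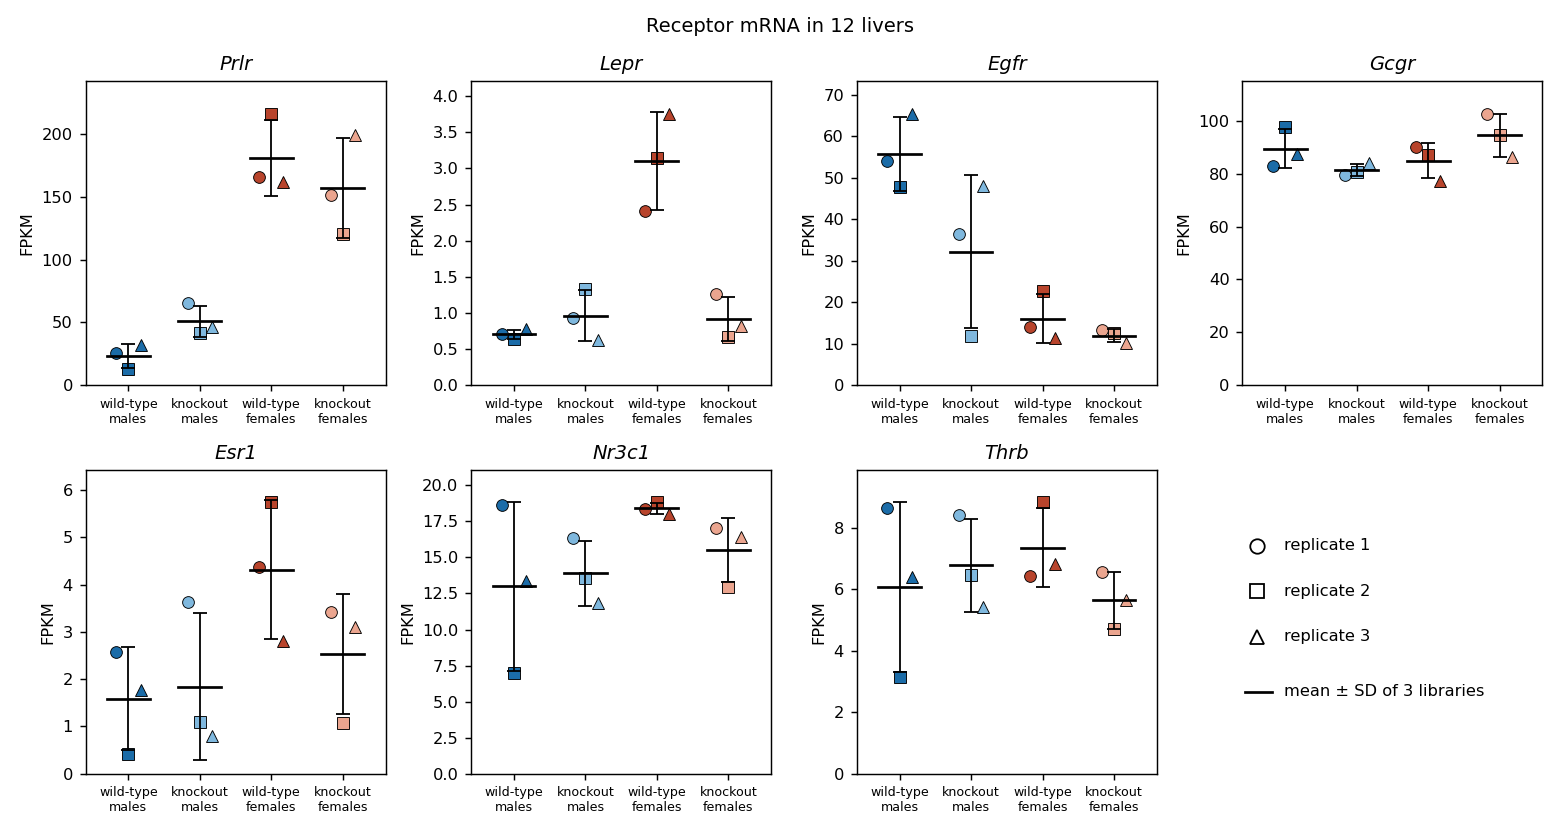
FPKM of the 7 receptors in each of the 12 livers (vertical axis, starting at 0) by group (horizontal axis); symbols are replicates and black bars are the mean ± SD of 3 libraries. Prlr is highest in both female groups, Egfr in wild-type males and Lepr in wild-type females, while Gcgr stays between 77.49 and 102.87 FPKM in all 12.

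Prlr, the receptor for prolactin, had the widest range of the 7, 16.5-fold from the lowest to the highest library. It lies on chromosome 15 (GRCm38.p6, bases 10177238 to 10349190, plus strand; Entrez 19116), and the predicted gene Gm21973 overlaps its last part on the same strand. RefSeq lists several start sites for it. The 250 bases before a pair of them are shown because Prlr is the receptor with the largest sex difference here. Capitals mark matches, searched on both strands, to TTCNNNGAA (STAT5), AGGTCA (a nuclear receptor half-site), TGTTCT (the downstream part of a glucocorticoid response element), TATAAA (the TATA box), CCAAT (the CCAAT box) and GGGCGG (the GC box), and neither window overlaps an annotated exon.
Prlr chr15:10176988-10177237, plus strand: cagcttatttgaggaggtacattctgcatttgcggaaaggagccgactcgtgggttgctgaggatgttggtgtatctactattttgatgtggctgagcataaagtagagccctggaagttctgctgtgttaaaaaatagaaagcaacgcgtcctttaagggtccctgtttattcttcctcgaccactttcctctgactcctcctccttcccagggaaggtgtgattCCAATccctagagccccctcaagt
Prlr chr15:10223656-10223905, plus strand: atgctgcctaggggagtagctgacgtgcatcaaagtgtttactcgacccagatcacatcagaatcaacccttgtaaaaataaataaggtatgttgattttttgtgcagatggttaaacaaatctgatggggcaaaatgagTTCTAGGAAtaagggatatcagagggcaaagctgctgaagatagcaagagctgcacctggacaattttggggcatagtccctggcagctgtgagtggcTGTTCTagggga
The upstream window, at the first base of the gene, holds 48.0% G or C and a CCAAT match that starts 24 bases before the start site. The other, at a start site inside the gene, holds 44.8% G or C, the TTCNNNGAA match 110 bases before the start and a TGTTCT match at 12 bases. The window before another listed start (chr15:10293401-10293650) has 32.8% G or C and none of the 6 motifs. The letters of the TTCNNNGAA match, TTCTAGGAA, also stood in a window of Esr1, 188 bases before a start site, so they are not particular to Prlr among the 7. Over the 32851 mouse windows of that length the median was 52.4% G or C, 7.02% held TTCNNNGAA, 16.1% TGTTCT and 33.8% CCAAT. A match is a description of letters, and FPKM per gene do not say which start site was used.

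Prlr stood at 25.37, 13.10 and 31.88 FPKM in the wild-type males and at 166.20, 216.38 and 161.65 in the wild-type females. Each of the female values lay far above each of the male ones. The mean was 7.74-fold higher in females (181 ± 30.4 against 23.4 ± 9.54, SD, n = 3 each), a log2 difference of -2.97 (SE 0.30) for males against females with an adjusted p of 7.89e-05 in limma. In the knockouts the males stood at 65.03, 41.17 and 46.57 FPKM and the females at 151.64, 120.54 and 199.24, again without overlap. There the female mean was 3.09-fold higher (157 ± 39.6 against 50.9 ± 12.5, SD, n = 3), with a log2 difference of -1.60 (SE 0.30) and an adjusted p of 0.0112 in limma. That call was lost without knockout female 3 (adjusted p = 0.0508 in limma) and without the 3 libraries that hold traces of the other sex (0.174), over a range of 0.00189 to 0.174 in 24 alternatives.

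The knockout males lay between the wild-type males and both female groups, and the order of the group means was WT females, knockout females, knockout males, WT males. The female groups overlapped each other, and every other pair of neighbours in this order was separate. In males the knockout mean was 2.17-fold the wild-type mean, a log2 difference of 1.15 (SE 0.30, unadjusted p = 0.00231) that missed the threshold with an adjusted p of 0.0599 in limma. Relative to the median of all genes it was 0.95. Over 24 alternatives the difference ran from 0.79 to 1.40 and the limma adjusted p from 0.0269 to 0.276, and the 1 alternative that called it removed each library's trend with transcript length. Among the wild-type males, replicate 2 was lowest in Prlr, and that library was poor in long transcripts. Without it the difference was 0.79 (adjusted p = 0.115 in limma).

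Between knockout and wild-type females Prlr differed by -0.22 on the log2 scale (SE 0.30, adjusted p = 0.933 in limma), with overlapping values. The interaction for Prlr was 1.37 (SE 0.42), with an unadjusted p of 0.00684 and an adjusted p of 0.48 in limma, and it was called under none of 23 alternatives.

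**Figure D2:**
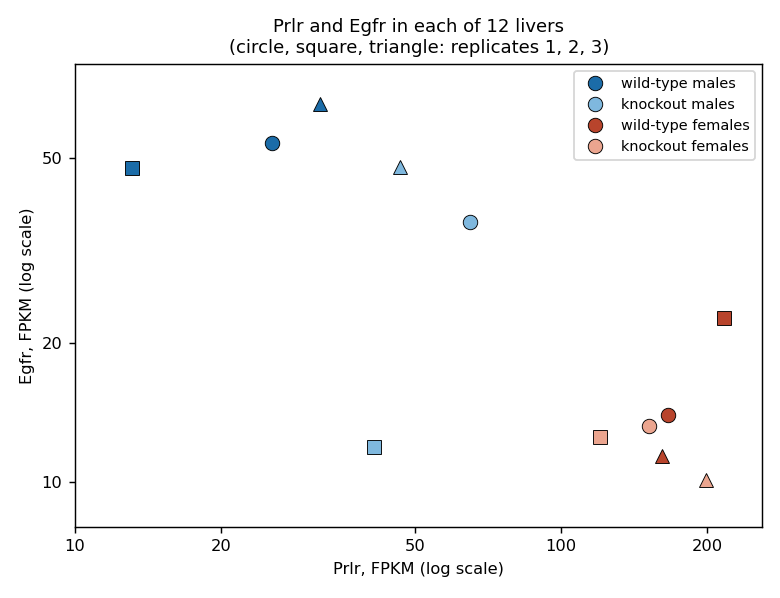
Prlr (horizontal) against Egfr (vertical), both in FPKM on log axes, in each of the 12 livers, coloured by group. Wild-type males sit at low Prlr and high Egfr and all females at high Prlr and low Egfr, with knockout males between them in Prlr and knockout male 2 as low in Egfr as the females.

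Lepr, the receptor for leptin, was the least abundant of the 7. It lies on chromosome 4 (GRCm38.p6, bases 101717137 to 101815352, plus strand; Entrez 16847), and its splice forms, which differ in the length of the tail inside the cell, are not separated in these values. Wild-type females stood at 2.41, 3.14 and 3.76 FPKM and knockout females at 1.26, 0.67 and 0.82. Wild-type males stood at 0.70, 0.64 and 0.77 and knockout males at 0.93, 1.33 and 0.63. The wild-type females were thus apart from the other 9 libraries, which ranged from 0.63 to 1.33 FPKM, and these other groups overlapped one another. Since Lepr passed the filter on low values mainly through the wild-type females, a difference of that group was a condition of its being tested.

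The wild-type female mean of Lepr was 4.41-fold that of wild-type males (3.10 ± 0.676 against 0.703 ± 0.0651 FPKM, SD, n = 3), a log2 difference of -1.26 for males against females (SE 0.17, adjusted p = 0.000857 in limma). In the knockouts males and females differed by 0.03 (SE 0.17, adjusted p = 0.964 in limma). Between wild-type and knockout females the mean was 3.39-fold higher in wild type, a log2 difference of -1.10 (SE 0.17). Its unadjusted p was 3.97e-05, but only 2 genes of the whole table were called in this contrast and the adjusted p of Lepr was 0.135 in limma. Over 23 alternatives the log2 difference ran from -1.68 to -0.98 and the adjusted p in limma from 0.00691 to 0.473, and 2 of them called it, quantile normalization and array weights. The interaction was 1.29 (SE 0.24, unadjusted p = 0.000207), not called at an adjusted p of 0.149 in limma. Knockout and wild-type males differed by 0.19 (SE 0.17, adjusted p = 0.499 in limma). At such levels a library holds a rough 46 to 465 fragments of the gene, depending on the library and the transcript length assumed, so counting error is larger here than for the other receptors except Esr1.

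In bulk liver, fewer cells of a type and less RNA per cell cannot be told apart, and summed marker levels moved with some of these contrasts. In knockout males the hepatocyte sum, given above, and that of 11 periportal hepatocyte genes (35500 to 38500 FPKM, against 44100 to 50300 in the other 9 libraries) lay below all other libraries, while that of 12 pericentral genes overlapped. Alb is on both lists with lower sums and makes up most of the periportal sum, so these sums are not independent. It stood at 31719.53 to 35761.97 FPKM in knockout and 39816.81 to 44456.32 in wild-type males. Of the 11 periportal genes 2 were called lower in knockout than in wild-type males, beside 2.55% of all tested genes called. Their median log2 difference was -0.34. All 11 macrophage markers were tested, and 6 were called higher in knockout than in wild-type males. Of all tested genes 2.55% were called in that contrast, 245 of them higher. Summed over the 11, wild-type males reached 150 to 291 FPKM and knockout males 335 to 783. Wild-type females reached 385 to 594 and knockout females 466 to 609. Of the 12 markers of sinusoidal endothelium 6 rose in knockout males, with sums of 112 to 129, 174 to 195, 212 to 246 and 207 to 223 FPKM in the same order. Of the 12 stellate and matrix genes 1 rose, with sums of 97.8 to 121, 149 to 234, 163 to 180 and 171 to 213. No defining marker of these lists was at 0 in any library. The macrophage, endothelial and stellate sums were lowest in wild-type males, and those of wild-type and knockout females overlapped. The part of these cells in the receptor results was not tested.

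The other genes of the prolactin and leptin pathways were JAK and STAT proteins, their suppressors, adaptors and related receptors. Of 23 tested, 1 rose in knockout males, beside 2.55% of all tested genes called in that contrast. It was Ptpn1, the tyrosine phosphatase that dampens leptin and insulin signalling, from 4.24 ± 0.445 to 7.96 ± 2.19 FPKM (SD, n = 3), by 0.75 on the log2 scale (adjusted p = 0.0463 in limma). That call held in 7 of 24 alternatives. None was called in knockout females, with 3 at an unadjusted p under 0.05 in limma, a level reached by 6.13% of all genes. Between the sexes in wild type 3 were called, all lower in males as were 11.1% of all tested genes. Each of the 3 was called in fewer than 10 alternatives. They were Leprot, which limits receptors at the cell surface (-0.62), the adaptor Sh2b1 (-0.50) and Ghr, the growth hormone receptor (-0.37). In the knockouts 1 was called, beside 3.67% of all tested genes. It was Lifr, the leukaemia inhibitory factor receptor, lower in males (-1.29, adjusted p = 0.0261 in limma). Medians of the list were 0.26, -0.05, -0.39 and -0.09 in these 4 contrasts, beside 0.19, 0.0, -0.21 and -0.01 for all tested genes. The ligand genes Prl and Lep were not analysed here.

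Egfr, the receptor for epidermal growth factor and transforming growth factor alpha, showed the sex difference in the other direction. It lies on chromosome 11 (GRCm38.p6, bases 16752203 to 16913907, plus strand; Entrez 13649), with the antisense gene Egfros over it, and no source used here says that reads were counted by strand. Its upstream window is shown beside those of Prlr as that of the male-biased receptor, with the same marking, and it overlaps no annotated exon.
Egfr chr11:16751953-16752202, plus strand: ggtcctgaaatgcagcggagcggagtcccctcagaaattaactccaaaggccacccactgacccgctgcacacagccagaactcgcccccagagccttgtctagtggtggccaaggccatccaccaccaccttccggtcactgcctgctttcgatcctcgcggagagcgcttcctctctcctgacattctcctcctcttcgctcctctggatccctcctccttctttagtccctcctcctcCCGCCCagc
The window holds 60.8% G or C and 1 match, GGGCGG on the opposite strand, 9 bases before the start. A GGGCGG match was present in 32.7% of the 32851 mouse windows. Of the 6 motifs searched, no other stood in this window.

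Egfr stood at 53.94, 47.72 and 65.41 FPKM in wild-type males and at 13.94, 22.57 and 11.38 in wild-type females, without overlap. The male mean was 3.49-fold higher (55.7 ± 8.97 against 16.0 ± 5.86, SD, n = 3), a log2 difference of 1.78 (SE 0.40, adjusted p = 0.0155 in limma). This call was lost without wild-type female 1 (1.72, adjusted p = 0.0584), without wild-type female 3 (1.58, 0.057) and without the 3 libraries that hold such traces (1.72, 0.0605), and held in 21 of 24 alternatives in limma. Knockout males stood at 36.49, 11.90 and 47.86 FPKM and knockout females at 13.18, 12.52 and 10.12. Knockout male 2 lay among the females and the other 2 knockout males above them, so the groups overlapped. The male mean was 2.69-fold higher in the knockouts (32.1 ± 18.4 against 11.9 ± 1.61, SD, n = 3), a log2 difference of 1.16 (SE 0.40) with an adjusted p of 0.169 in limma, and without knockout male 2 it was 1.73 and called (0.0034).

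In males, the wild-type mean of Egfr was 1.74-fold the knockout mean, a log2 difference of -0.97 (SE 0.40, unadjusted p = 0.0335, adjusted p = 0.173 in limma), and the highest knockout value, 47.86, lay just above the lowest wild-type value, 47.72. Without knockout male 2 the difference was -0.39 (adjusted p = 0.479 in limma), so its size rested on that library. Knockout male 2 also held the highest macrophage and lymphocyte marker sums of its group (783 and 620 FPKM, with 335 to 450 and 52.8 to 96.3 in replicates 1 and 3), and the part of these cells was not tested. Of the lymphocyte list, Ptprc reached at most 10.19 FPKM in knockout males, and Cd79a, Cd79b, Ms4a1 and Cd3d at most 5.53. The lymphocyte sum therefore rests on other genes of the list and is not read as a measure of lymphocytes. Knockout male 2 had the lowest sum of the 21 male-biased liver genes among the males as well, 3980 FPKM, against 5730 and 11500 in replicates 1 and 3. The wild-type males held 25900 to 32700. Knockout and wild-type females differed in Egfr by -0.34 (SE 0.40, adjusted p = 0.928 in limma), and the interaction was -0.63 (SE 0.57, adjusted p = 0.609 in limma).

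Of the ligands of Egfr, Tgfa was at 3.05 to 4.40 FPKM on average in the 4 groups, Btc at 0.943 to 1.38, Hbegf at 0.35 to 0.613 and Egf at 0.11 to 0.153. Among its partner receptors Erbb3 was at 29.1 ± 5.55 FPKM in wild-type females and 10.4 to 15.2 on average in the other groups, called in no contrast, and Erbb2 was at 0.147 to 0.29. Of 28 tested genes of the EGF receptor pathway none was called between genotypes, with 6 in males and 4 in females at an unadjusted p under 0.05 in limma, beside 23.9% and 6.13% of all genes. Between the sexes in wild type 5 of the 28 were called, all lower in males, beside 11.1% of all tested genes called lower in males. They were Ccnd1, the cell cycle gene cyclin D1 (2.44 ± 0.535 against 10.5 ± 3.76 FPKM, SD, n = 3; log2 -1.70, adjusted p = 0.00525 in limma), the kinase Mapk3 (-0.53), the ubiquitin ligase Cblb (-0.73) and the feedback inhibitors Spry4 (-1.16) and Dusp6 (-1.40). In the knockouts Ccnd1 alone was called (-1.65, adjusted p = 0.0124 in limma), beside 3.67% of all tested genes. The median of the list was -0.30 between the wild-type sexes, beside -0.21 for all genes, and 0.26 between knockout and wild-type males, beside 0.19.

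Gcgr, the glucagon receptor, was abundant and the most even of the 7, with a 1.33-fold range over the 12 libraries. It lies on chromosome 11 (GRCm38.p6, bases 120529185 to 120538989, plus strand; Entrez 14527), opposite the antisense gene Gm11789. Its group means were 89.6 ± 7.53 FPKM in wild-type males, 81.5 ± 2.44 in knockout males, 85.0 ± 6.63 in wild-type females and 94.7 ± 8.17 in knockout females (SD, n = 3). The 3 knockout males (79.53, 80.80 and 84.24) lay below the 3 knockout females (102.87, 94.70 and 86.53), but the log2 difference was -0.21 (SE 0.11) with an adjusted p of 0.40 in limma. The other contrasts gave -0.13 between genotypes in males, 0.15 in females and 0.07 between the wild-type sexes (SE 0.11 each), none called. At 1957 bases its transcript is the shortest of the 7 (percentile 31.0 of the tested genes), and in wild-type male 2, the library poorest in long transcripts, it stood 0.19 (log2) above the other wild-type males, where the 6 longer receptors were lower.

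Of 27 tested genes of glucagon signalling and its targets (G proteins, cyclic AMP kinases and phosphodiesterases, gluconeogenic and amino acid enzymes) none was called between genotypes. At an unadjusted p under 0.05, limma gave 4 in males and 0 in females, beside 23.9% and 6.13% of all genes. Between the wild-type sexes 1 of the 27 was called higher and 3 lower in males, beside 13.4% of all tested genes called. Pfkfb1, the liver enzyme that makes and removes the glycolytic regulator fructose bisphosphate, was higher in wild-type males than in wild-type females (19.83 to 29.78 against 10.3 to 15.8 FPKM, log2 0.81, adjusted p = 0.0375 in limma). Lower in males were Pde4b (-0.97) and Pde4d (-0.49), which break down cyclic AMP, and Aass, an enzyme of lysine breakdown (-0.54). In the knockouts Pde4b alone was called (-0.79, adjusted p = 0.0474 in limma), beside 3.67% of all tested genes. The related receptors Glp1r and Gipr were listed at 0 in both male groups and averaged at most 0.01 FPKM in the females.

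**Figure D3:**
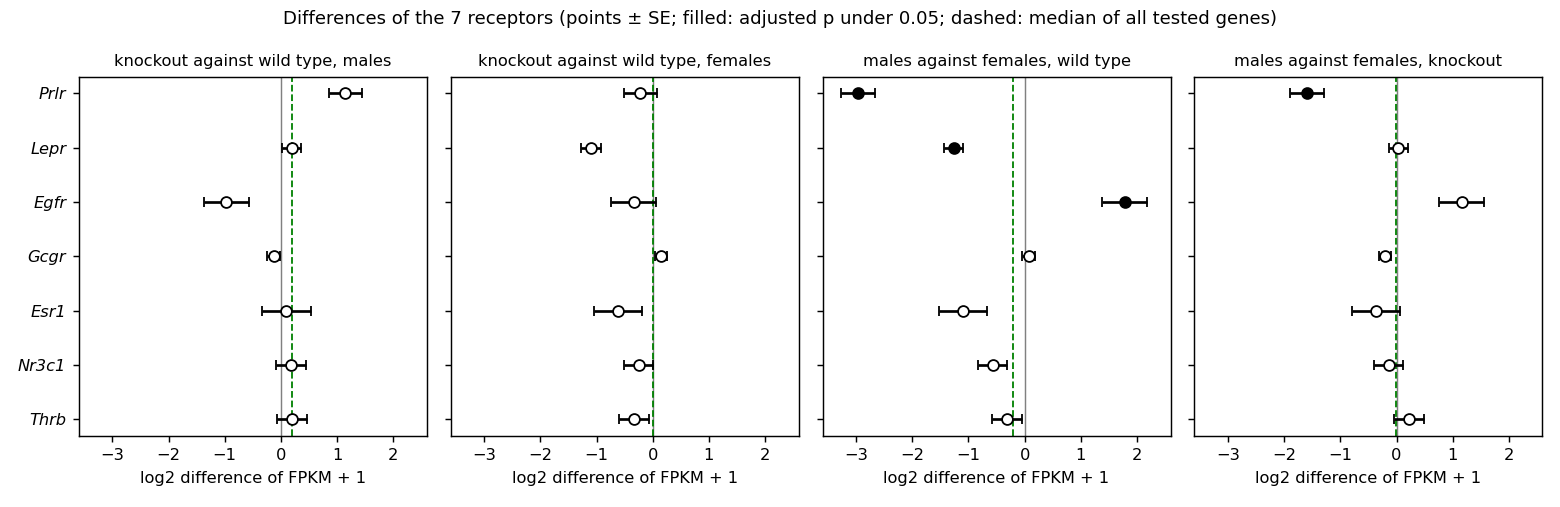
Log2 differences (horizontal axis, points ± SE) of the 7 receptors in the 4 contrasts of 2 groups; filled points have an adjusted p under 0.05 and the dashed line is the median of all tested genes. Only the sex contrasts hold filled points: Prlr, Lepr and Egfr in wild type, and Prlr in the knockouts.

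Nr3c1, the glucocorticoid receptor, was the most abundant of the 3 nuclear receptors. It lies on chromosome 18 (GRCm38.p6, bases 39410545 to 39519421, minus strand; Entrez 14815). The wild-type females stood at 18.39, 18.82 and 18.04 FPKM and the knockout females at 17.05, 12.93 and 16.40, without overlap but with a log2 difference of only -0.25 (SE 0.26, adjusted p = 0.924 in limma). The wild-type males stood at 18.65, 6.96 and 13.37 and the knockout males at 16.32, 13.57 and 11.84. Replicate 2 of the wild-type males was the lowest of the 12 libraries, and the wild-type males spread from near the female level to less than any other group. The wild-type sexes differed by -0.57 (SE 0.26, adjusted p = 0.153 in limma), and the contrast was called in 1 of 24 alternatives, without wild-type male 1 (-0.86, adjusted p = 0.0384 in limma). Between genotypes in males the difference was 0.18 (SE 0.26), with its sign reversed under scalings and without wild-type male 2.

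Esr1, the oestrogen receptor, lies on chromosome 10 (GRCm38.p6, bases 4611989 to 5005633, plus strand; Entrez 13982). It stood at 4.38, 5.74 and 2.80 FPKM in wild-type females, above the 2.58, 0.42 and 1.77 of the wild-type males without overlap. The female mean was 2.71-fold higher (4.31 ± 1.47 against 1.59 ± 1.09, SD, n = 3), with a log2 difference of -1.10 (SE 0.43) that was not called (adjusted p = 0.107 in limma, 0.0742 to 0.31 over 23 alternatives). The knockout males (3.63, 1.10 and 0.80) and knockout females (3.42, 1.08 and 3.10) overlapped. Between genotypes Esr1 differed by 0.10 in males and -0.62 in females (SE 0.43 each; adjusted p = 0.896 and 0.881 in limma). Its close relative Esr2 averaged 1.07 to 1.45 FPKM in the 4 groups.

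Thrb, the main thyroid hormone receptor of hepatocytes, lies on chromosome 14 (GRCm38.p6, bases 17659225 to 18040097, plus strand; Entrez 21834), with the antisense gene Gm48321 over it. Its group means were 6.06 ± 2.77 FPKM in wild-type males, 6.77 ± 1.52 in knockout males, 7.35 ± 1.29 in wild-type females and 5.63 ± 0.92 in knockout females (SD, n = 3). The order of the means was WT females, knockout males, WT males, knockout females, and every neighbouring pair in it overlapped. The log2 differences were 0.20 between genotypes in males, -0.33 in females, -0.32 between the wild-type sexes and 0.22 between the knockout sexes (SE 0.27 each), none called. Thra, the other receptor for the hormone, averaged 3.69 to 5.24 FPKM.

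The spread of the 3 nuclear receptors within groups went with the transcript length slope of the library, the change of a gene's log2 deviation from its mean over libraries with each doubling of its length. The slope was -0.215 in wild-type male 2, -0.092 in knockout female 2, -0.08 in knockout male 3 and -0.003 to 0.122 in the other 9 libraries. The mean annotated transcript is 6327 bases for Nr3c1 (percentile 92.1 of the tested genes), 5366 for Thrb (87.3) and 4344 for Esr1 (78.0), beside a median of 2726 for all tested genes. In wild-type male 2 they stood -1.08 (Nr3c1), -1.03 (Thrb) and -1.15 (Esr1) from the mean of the other wild-type males on the log2 scale. Prlr, at a mean of 4975 bases, stood at -1.06 in that library, Egfr (6576 bases) at -0.31 and Lepr (4360 bases) at -0.08. Egfr, the longest of the 7, was not low in the other 2 libraries poor in long transcripts: from the mean of its group it stood at 0.77 in knockout male 3 and 0.07 in knockout female 2. Whether RNA quality, priming or another step lies behind the slope was not tested. With the length trend removed from each library, Nr3c1, Esr1 and Thrb were called in no contrast, as before.

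**Figure D4:**
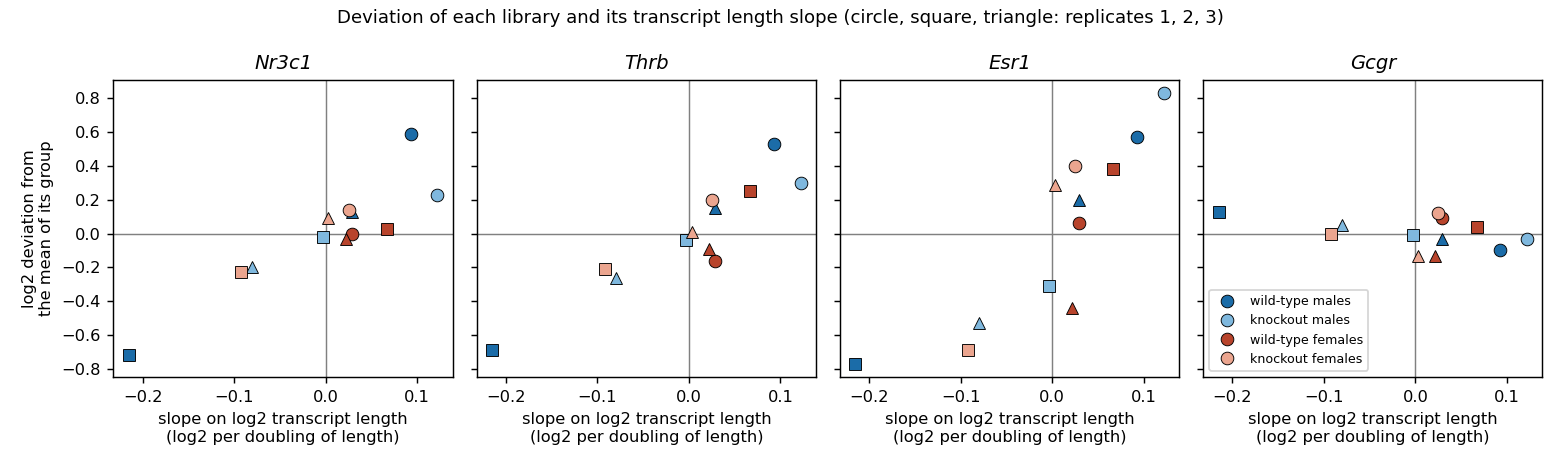
Deviation of each library from the mean of its group (vertical axis, log2) against the transcript length slope of that library (horizontal axis, log2 per doubling of length) for Nr3c1, Thrb, Esr1 and Gcgr, coloured by group. The 3 libraries with slopes of -0.215 to -0.08 lie low for the nuclear receptors and not for Gcgr; Egfr, which is not plotted, has the longest mean transcript and was not low in 2 of these libraries.

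All 27 partners and targets of the glucocorticoid receptor on the list were tested. In knockout males 3 rose, beside 2.55% of all tested genes called in that contrast. All 3 are also known to respond to inflammation. They were Lcn2, lipocalin 2 (5.18 to 31.86 FPKM in wild-type and 201.82 to 329.78 in knockout males, log2 3.81, adjusted p = 0.00917 in limma), and the metal-binding metallothioneins Mt2 (3.31, 0.0296) and Mt1 (2.61, 0.0423). The Lcn2 call held in 23 of 24 alternatives, that of Mt2 in 12 and that of Mt1 in 8. None was called in knockout females, with 3 of 27 at an unadjusted p under 0.05 in limma, beside 6.13% of all genes. Between the wild-type sexes Serpina6, which makes the corticosteroid-binding globulin of plasma, was lower in males (163 ± 6.05 against 612 ± 137 FPKM, SD, n = 3; log2 -1.87, adjusted p = 3.38e-05 in limma). In that contrast Mt1, Mt2 and Fkbp5, an immunophilin that restrains the receptor, were lower too, and its chaperone Hsp90aa1 was higher (1.02). Thus 4 of the 27 were called lower and 1 higher in wild-type males, beside 13.4% of all tested genes called. In the knockouts Serpina6 (-1.52) and Hsd11b1, which regenerates active glucocorticoid (-0.53), were lower in males and Lcn2 was higher (2.40), beside 3.67% of all tested genes called. The list's median between knockout and wild-type males was 0.23, beside 0.19 for all genes.

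Of 16 tested partners and targets of the oestrogen receptor none was called between genotypes, with 4 in males and 2 in females at an unadjusted p under 0.05 in limma, beside 23.9% and 6.13% of all genes. Between the wild-type sexes 2 of the 16 were called higher and 1 lower in males, beside 13.4% of all tested genes called. Among them the steroid and fatty acid enzyme Hsd17b12 was higher in males than in females (0.56, adjusted p = 0.0163 in limma), and Ccnd1, given above, was lower. In the knockouts Hsd17b12 (0.80), Hsd17b4 (0.55) and again Ccnd1 were called, beside 3.67% of all tested genes.

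Of 26 tested partners and targets of the thyroid hormone receptors 2 rose in knockout males, beside 2.55% of all tested genes called. Serpina7, the thyroxine-binding globulin, rose from 29.9 ± 0.845 to 86.4 ± 9.76 FPKM (SD, n = 3), by 1.49 on the log2 scale (adjusted p = 0.00947 in limma), and was called in 23 of 24 alternatives. Bcl3 rose by 0.86 (adjusted p = 0.0217 in limma), called in 16 of 24. None was called in knockout females, with 2 at an unadjusted p under 0.05 (6.13% of all genes). Between the knockout sexes Serpina7 alone was called, higher in males (1.73, adjusted p = 0.00102 in limma), beside 3.67% of all tested genes called. Between the wild-type sexes 1 of the 26 was called higher and 5 lower in males, beside 13.4% of all tested genes called. Slco1a1, an organic anion carrier, was higher in males (5.55), and genes lower in males included the deiodinase Dio1 (-0.95), the glycerol phosphate enzyme Gpd2 (-0.88), the fatty acid oxidation enzyme Cpt1a (-1.03) and the partner receptor Rxrb (-0.41). The list's median was 0.23 in knockout against wild-type males, beside 0.19 for all genes, and -0.41 between the wild-type sexes, beside -0.21.

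Other hormone, growth factor and cytokine receptors of the liver give the setting for the 7. Of 38 tested, 9 were called between the wild-type sexes, all lower in males, beside 11.1% of all tested genes called lower in males and 13.4% called in either direction. They included Klb, the FGF21 co-receptor (5.10 ± 1.47 against 11.4 ± 1.89 FPKM, SD, n = 3; log2 -1.04, adjusted p = 0.00718 in limma), the activin receptor Acvr2b (-0.76) and the vasoactive intestinal peptide receptor Vipr1 (-0.61). Acvr2b passed the filter on low values only through the wild-type females (1.47 to 1.82 FPKM, at most 1.01 in the other groups). Its call is therefore not to be read against those shares. Prlr had a more negative and Egfr a more positive difference than any of the 38. Between knockout and wild-type males 1 of the 38 rose, beside 2.55% of all tested genes called. It was Tnfrsf1a, a receptor for tumour necrosis factor (0.64, adjusted p = 0.0476 in limma, called in 6 of 24 alternatives). None of the 38 was called in females, with 2 at an unadjusted p under 0.05 in limma (6.13% of all genes). Avpr1a, a vasopressin receptor, stood at 14.7 ± 1.87 FPKM in wild-type and 6.19 ± 0.911 in knockout males (SD, n = 3), with an adjusted p of 0.0623 in limma. The medians of the 38 were -0.39 between the wild-type sexes, beside -0.21 for all genes, and 0.19 in knockout against wild-type males, the same as for all genes.

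**Figure D5:**
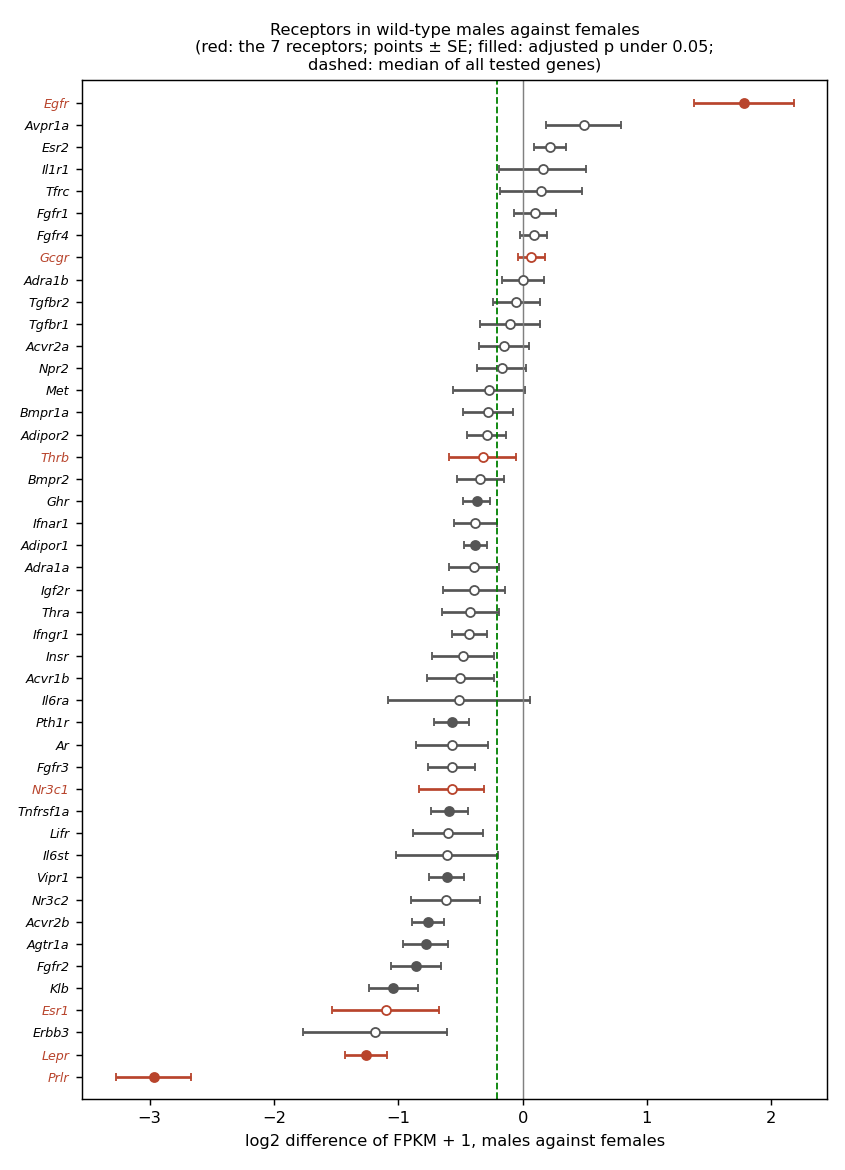
Log2 difference of wild-type males against wild-type females (horizontal axis, points ± SE) for the 7 receptors (red) and 38 other receptors (grey), sorted by value; filled points have an adjusted p under 0.05 and the dashed line is the median of all tested genes, -0.21. Egfr stands at one end (1.78) and Prlr at the other (-2.97), and the 9 other filled receptors are lower in males.

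The genes most like each receptor over the 12 libraries were found by Pearson's r of log2(FPKM + 1), a description in which all points share library, depth and length slope. Prlr was most like Abcd2 (r = 0.983) and Trim24 (0.974), both on the list of female-biased liver genes, and then Dpys (0.97), Dab2 (0.967) and Exoc7 (0.966), which are on neither sex-biased list. Egfr was most like Mup7 (0.955), Slco1a1 (0.943) and Serpina1e (0.943), which are on the male-biased list, and then Mup11 (0.938) and Slc22a28 (0.923), which are on neither. Mup and Serpina1 genes share sequence with near copies. Lepr was most like 1810053B23Rik (0.96) and Map3k11 (0.946). The nuclear receptors were most like other genes: Nr3c1 like Cnot6l and Akap11 (0.979 each), Thrb like Tnrc6b (0.979) and Esr1 like Ppp4r4 (0.981). Gcgr had the weakest nearest match, Cdhr5 at 0.853. Among the 7 themselves r was 0.87 for Nr3c1 with Esr1 and for Nr3c1 with Thrb, and -0.76 for Prlr with Egfr.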

How the data were processed

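Liver RNA of 12 mouse samples was measured by RNA sequencing. RNA was isolated with an RNeasy kit, per the labels' protocols, and the polyadenylated part was taken with oligo(dT) beads, copied with random primers and made into circular DNA. The deposited values are FPKM per gene, per the file headers. The submitters' processing notes name TopHat2 and mm10 without their roles. How FPKM were computed, any filter and the number of reads: not given in the sources used here. All FPKM columns were matched to samples by name, and at most 0.295% of values were identical in any pair of libraries.

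Groups came from genotype and sex in the labels. FPKM were tested as log2(FPKM + 1) with limma 3.58.1 (R 4.3.3), with 1 mean per group, a variance trend and two-sided Benjamini-Hochberg adjusted p-values over 11514 genes. Tables were made in Python 3.11.15. The test was checked on simulated data. Depth was estimated from the steps in low FPKM values, so its precision is limited. Alternatives were a pseudocount of 0.1, no filter, a filter on mean FPKM (5 or more), quantile normalization, median-ratio scaling, removal of each library's length trend, array weights, a replicate block, no variance trend, a fit of just the pair of groups, and leaving out each library. Removal of the 3 libraries poor in long transcripts, and of the 3 with traces of the other sex, was added after seeing the data.

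Genes were named by a rule: the 7 receptors, up to 3 genes per pathway list and contrast by p, ligands and partners at any p, and the 5 genes most like each receptor. Other list members beyond these were counted only, except Cblb, Dusp6, Pde4d, Fkbp5, Hsp90aa1, Dio1, Cpt1a and Rxrb, named after their values were seen because few were called. A few list members are not reported here. The members and lists were chosen with earlier results of these data known. Coordinates and upstream windows are from RefSeq (GRCm38.p6), which gave 11 windows for 6 of the 7 receptors. Transcript lengths are from GENCODE.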

Additional observations from a re-analysis of the deposited data

How the results depend on the processing

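Of 823 comparisons of a receptor's log2 difference with an alternative, 792 kept their direction and side of the threshold, 5 gained and 5 lost a call, and 21 changed sign. For the other named genes the figures were 2105 of 2389 kept, 50 gained and 234 lost. The count of receptors called between genotypes in males went from 0 to 1 with the length trend removed (Prlr), and in females from 0 to 1 with quantile normalization and with array weights (Lepr, each time). It was 0 throughout for the interaction. Between the wild-type sexes 3 became 2 to 4 when single libraries were left out. Between the knockout sexes 1 became 0 without the 3 libraries that hold other-sex traces and 0 to 2 when single libraries were left out (0 without knockout female 3, 2 without knockout male 2). Lepr and Esr1 could not be tested at a mean of at least 5 FPKM.

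Signs turned only for differences that were not called; the cause was not tested. Between genotypes in males Esr1 (0.10) became -0.07 with quantile normalization, -0.15 with array weights and -0.01 when the 3 long-poor libraries (low in long transcripts) were dropped, and ran from -0.31 to 0.39 when single libraries were left out. Nr3c1 (0.18) became -0.02 with median-ratio scaling and -0.06, -0.17 and -0.08 under those 3 alternatives, with -0.18 to 0.47 for single libraries. Thrb (0.20) became -0.03, -0.10 and -0.01, with -0.14 to 0.47. Between the wild-type sexes Gcgr became -0.02 with array weights, and Thrb became 0.03 without the long-poor libraries and ran from -0.58 to 0.03 for single libraries. Between the knockout sexes Lepr ran from -0.10 to 0.16 for single libraries, and Esr1 and Nr3c1 became 0.09 and 0.03 without those that hold other-sex traces.

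Counts over all genes moved more; the cause was not tested except that some settings hold fewer libraries or genes. In males the 294 genes called between genotypes became 174 without a filter, 152 with median-ratio scaling, 140 with quantile normalization, 898 with the length trend removed, 3 with only the groups compared, 63 with array weights, 125 without the other-sex traces and 58 to 570 for single libraries. In females the 2 became 1 (pseudocount of 0.1, mean of at least 5 FPKM, length trend removed), 4 (no filter), 6 (only the groups compared), 229 (array weights), 0 without either set of 3 libraries, and 0 to 12 for single libraries. The 3 interaction calls became 5 (pseudocount of 0.1), 1 (length trend removed), 10 (array weights) and 1 to 22. Between the wild-type sexes 1539 became 904 (mean of at least 5 FPKM), 2358 (length trend removed), 525 (other-sex traces left out) and 675 to 2081. Between the knockout sexes 423 became 655, 216 (only the groups compared), 675 (array weights), 123 and 201 to 637.

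Some same-numbered libraries deviated together, such as replicate 1 of WT and knockout males (0.56), but over 18 pairs the correlations ran from -0.32 to 0.56, with 6 over 0.1, and 0 of 12 libraries matched their own number best in every other group. The numbers were therefore not taken as pairs. With the replicate number as a block 132 genes were called between genotypes in males and 5 for the interaction, and the counts of receptors called did not move. Levels near 1 FPKM, as in Lepr and Esr1, carry the largest counting error.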
